A study of Mus musculus with 7 samples.

Results

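Followed here were 10 genes that hold the mouse oocyte in prophase of meiosis I, or release it from there, in ovulated oocytes with and without the maternal effect gene Nlrp2. They are Gpr3, Gpr12, Adcy3, Pde3a, Prkaca, Wee2, Pkmyt1, Cdc25a, Cdc25b and Cdc25c, taken by name, and all 10 were found among the 18951 genes of the table. RNA came from pools of about 150 oocytes of C57BL/6 females aged 4 weeks, with 3 to 4 mice of 1 genotype in a pool. There were 3 wild-type (WT) pools and 4 Nlrp2-null pools. Cumulus-oocyte complexes had been flushed from the oviduct and freed of cumulus cells with hyaluronidase. The sources used here do not say how the null allele was built, which exons it lacks or whether females were hormone-primed. Pools were treated as separate collections of animals, so p values measure the spread between pools.

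The resting oocyte stays in prophase because it makes its own cyclic AMP. GPR3 and its close relative GPR12 are receptors that signal without a known hormone through the stimulatory G protein to adenylyl cyclase, of which ADCY3 is one form. Cyclic AMP activates protein kinase A, for which Prkaca encodes a catalytic subunit. Protein kinase A switches on WEE2, the oocyte's own WEE1-type kinase, and keeps CDC25B inactive. WEE2 and PKMYT1 place inhibitory phosphates on CDK1, and the CDC25 phosphatases take them off. PDE3A breaks down cyclic AMP and is itself restrained by cyclic GMP that enters from cumulus cells, until luteinizing hormone ends that supply. Ovulated oocytes have left this arrest, so these values describe the transcripts that remain after it.

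Both arms of the switch meet on a short stretch of the CDK1 protein, shown here as its coding sequence because it is what WEE2, PKMYT1 and the CDC25 enzymes act on. Codons 10 to 19 of Cdk1 are read from the GENCODE M21 transcript on GRCm38. They lie on chromosome 10, minus strand, across the junction of exons 2 and 3 of 8 (69346212 to 69350105, intron included). Capitals mark codons 14 and 15, for the threonine and the tyrosine that are phosphorylated.
Cdk1: attggagaaggtACTTACggtgtggtgtat
The catalytic sites of Cdc25a (codons 420 to 429, exon 13 of 15, chromosome 9, 109889807 to 109889836, plus strand) and Cdc25b (codons 482 to 491, exon 14 of 16, chromosome 2, 131194725 to 131194754, plus strand) are shown because these paralogs must be told apart by their reads. Capitals mark the codons of the catalytic cysteine and of the arginine that follows it in the site.
Cdc25a: cacTGTgagttttcctctgaaAGAggccct
Cdc25b: cacTGTgaattctcgtctgagCGTggacca
Even at this conserved site 22 of 30 bases were identical. Over the aligned coding sequence Cdc25a and Cdc25b were 63.3% identical, with a longest exact run of 14 bases, and the longest run between Cdc25a and Cdc25c was 20 bases. Gpr3 and Gpr12 were 65.6% identical with a longest run of 14 bases, and Wee2 and Wee1 were 65.2% identical with a longest run of 20 bases. The closest pair was Prkaca and Prkacb, at 80.8% with a run of 34 bases.

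Nlrp2 was at 15527, 20130 and 16792 normalized counts in WT and at 107, 8.19, 1.96 and 63.8 in the null pools, which fits the labels. Depth was 71073973 to 96330083 reads per pool. Of 16 oocyte markers all were detected, and their mean log2 level was 14.5 to 14.6 in every pool. Of the 16, 10 had positive fold changes and 3 had an unadjusted limma p under 0.05. These were Gdf9 (log2 fold change, null minus WT, of 0.20), Nobox (-0.24) and Dazl (-0.41). Dazl was lower in every null pool than in any WT pool (limma adjusted p = 0.0826, DESeq2 adjusted p = 0.000593). Over all tested genes the groups did not overlap in 9.91%. Of 32 cumulus and granulosa markers 29 were abundant enough to test. Their mean log2 level was 7.80 to 9.10 in WT and 8.20 to 9.78 in null pools, highest in null 4 and null 3, and 25 of 29 had positive fold changes (two-sided exact permutation test on the mean, p = 0.286, where 35 splits allow 0.0286 at best). Their summed normalized counts were 26693 to 44122 in WT and 34644 to 55847 in null pools, beside 970281 to 1126393 for the oocyte markers. Amh, Areg and Gatm, of the same list, were at or near 0 in every pool. Of 7 tested oviduct markers 6 had positive fold changes. An unadjusted limma p under 0.05 was found for 3 (Ovgp1, Krt8 and Cdh1), beside 10.2% of all tested genes. The mean log2 level of the 7 was 6.83 to 7.81 in WT and 7.37 to 8.20 in null pools (two-sided exact permutation p = 0.286). Cdh1 held 20358 to 36101 normalized counts, where their sum was 21089.5 to 37297. Pax8 was at 73.7 in WT 1 and at most 4.75 elsewhere. Foxj1 was at 6.65 in WT 2 and at 0 elsewhere, and Tekt1 was not among the genes listed. Of 7 blood and immune markers 3 were abundant enough to test, and 1 had a positive fold change. Their mean log2 level was 4.935 to 6.91 in WT and 4.05 to 7.43 in null pools (two-sided exact permutation p = 0.971). Cd68 held 253, 192 and 198 normalized counts in WT and 107, 103, 143 and 172 in null pools, without overlap. Lyz2 ran from 0 in null 4 to 2427 in null 3. limma called 0 markers of any list. Of the 29 cumulus and granulosa markers 5 had an unadjusted limma p under 0.05, beside 10.2% of all tested genes. DESeq2, which called 1.33% of all genes, called Dazl, Inhbb (DESeq2 adjusted p = 6.6e-06) and Lox (DESeq2 adjusted p = 0.00739). Inhbb held 35.8, 14.3 and 8.23 normalized counts in WT and 217, 63.5, 234.5 and 846.5 in null pools. Lox was also higher in every null pool than in any WT pool. Fewer cells of a type and less RNA per cell cannot be told apart in such pools. By the library numbers in the labels the pools fell into a lower range (the first pair of each group) and a higher range (WT 3, null 3 and null 4).

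None of the 10 genes passed the test between null and WT pools, and none had an unadjusted p under 0.05. Over the whole table, limma on log2(normalized count + 1) called 10 of 15071 genes (adjusted p below 0.05 by Benjamini and Hochberg), which is 0.0664%, and 10.2% had an unadjusted p under 0.05, where 5.28% stood higher in null pools and 4.93% lower. The adjusted p values of the 10 genes ran from 0.602 for Cdc25a to 0.9895 for Prkaca. edgeR and DESeq2 on the recovered reads also called 0 of them, where they called 0.0464% and 1.33% of all genes. Log2 fold changes, null minus WT, ran from -0.21 for Cdc25b to 0.57 for Gpr12, with 6 positive and 4 negative and a median of 0.03, beside 0.01 over all tested genes. A p that misses the threshold does not show equal levels, so the intervals matter. For 8 of the 10 genes the 95% interval of the fold lay within a 2-fold change in either direction. The exceptions were Gpr12 and Adcy3, the genes with the fewest reads.

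**Figure D1:**
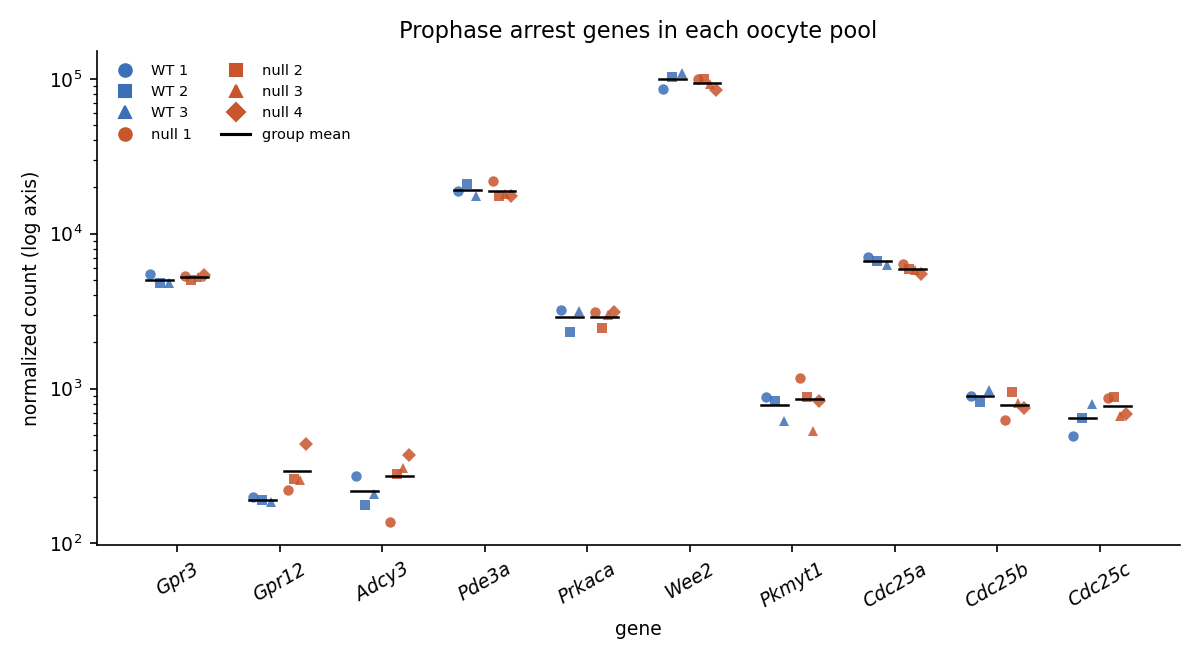
Normalized count (log axis) of each gene in the 3 WT pools (blue) and the 4 null pools (orange), with a marker shape per pool and a black bar at each group mean. Wee2 lies between 85193 and 108668 in all 7 pools, and only for Gpr12 do all null points stand above all WT points.

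The genes spanned a wide range of levels. On the scale of normalized counts per kb of exon, averaged over the 7 pools, Wee2 stood at 30676 and ranked 63 of 14508 tested genes with a known length. Gpr3 followed at 1888, Pde3a at 1485, Prkaca at 1172.5 and Cdc25a at 778. Each of these 5 lay above the next in all 7 pools, without overlap of their ranges. Pkmyt1 (226), Cdc25b (223), Cdc25c (146) and Gpr12 (99.7) came next, and neighbours among these 4 overlapped in range. Adcy3 was lowest at 40.1, below Gpr12 in every pool, and ranked 9994. The order depends on the length used: per kb of the coding transcript alone, Cdc25a, whose annotated exons sum to 8023 bases against 3632 in that transcript, moved up to the third place at 1719, above Pde3a at 1537. On that scale Cdc25c (370) also stood above Cdc25b (269), the reverse of their order per kb of exon, and Pkmyt1 was at 404.

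The receptor Gpr3 (chromosome 4, 133209340 to 133212536, minus strand) was steady. It held 5517, 4805 and 4816 normalized counts in WT pools (in the order 1 to 3, as in all that follows), and 5306, 5056, 5262 and 5370 in the null pools (1 to 4). The null pools lay inside the WT range, and the highest of 7 pools was 1.15 times the lowest. The fitted fold was 1.04 (95% interval 0.891 to 1.218, limma adjusted p = 0.887). Its exons overlap Cd164l2 on the opposite strand by 204 bases; Cd164l2 held 5557 ± 1614 (SD, n = 3) normalized counts in WT and 5894 ± 1004.5 (SD, n = 4) in null pools.

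Gpr12 (chromosome 5, 146582398 to 146585239, minus strand) was low. In WT pools it reached 199, 190 and 185 normalized counts, against 221, 261, 256 and 441 in null pools. Every null value exceeded every WT value, and null 4 stood above the rest. Over all tested genes 9.91% had groups that did not overlap, 4.74% with null pools higher and 5.16% with null pools lower, so 1 of 10 is near that background. The mean went from 191.5 ± 7.03 (SD, n = 3) to 295 ± 98.8 (SD, n = 4), a log2 fold change of 0.57 with a standard error of 0.360. As a fold this is 1.48 (95% interval 0.873 to 2.52, limma adjusted p = 0.631). Its reads numbered 189 to 421 per pool, where counting error at the fewest reads was 7.27%. The log2 fold change was 0.36 without null 4. Taking the mean of the cumulus markers into the fit gave 0.33, and that mean was highest in null 4. Among pools of the lower number range the log2 difference was 0.30, and among those of the higher range 0.855.

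Beside its relative Gpr3, Gpr12 therefore made up a small part of the pair. Per kb of exon its share of the Gpr3 and Gpr12 sum was 3.78%, 4.13% and 4.02% in WT pools and 4.34%, 5.32%, 5.03% and 8.20% in null pools. Null shares all exceeded WT shares, which follows from the Gpr12 counts themselves and was not tested separately. Gpr3 supplied 96.0% ± 0.178 (SD, n = 3) of the sum in WT and 94.3% ± 1.70 (SD, n = 4) in null pools.

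Adcy3 (chromosome 12, 4133103 to 4213525, plus strand) encodes an adenylyl cyclase, an enzyme that makes cyclic AMP. It held 274, 177 and 207.5 normalized counts in WT and 137, 281, 306 and 374 in null pools. The lowest and the highest pool were both null pools, null 1 and null 4, so the groups overlapped fully. The fold was 1.19 with a wide 95% interval of 0.662 to 2.15 (limma adjusted p = 0.868), and only 126 to 357 reads stood behind each value. The log2 difference was -0.17 in the lower and 0.70 in the higher range of library numbers, and the log2 fold change turned from 0.25 to -0.19 once the cumulus markers entered the fit. Without 1 pool it ran from 0.074 (without null 4) to 0.56 (without null 1). Its exons share 1380 bases with Cenpo on the opposite strand, and 25.8% of the 50-base windows of its coding transcript stand in Cenpo. Cenpo was far more abundant, with 7404 ± 620 normalized counts in WT pools and 7283 ± 474 in the null. The sources used here do not say if the counts kept strand apart, so the level of Adcy3 is uncertain.

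Pde3a (chromosome 6, 141249269 to 141507448, plus strand), the phosphodiesterase that ends the arrest, held 18949, 21019 and 17413 normalized counts in WT and 21897, 17619, 18080 and 17406 in null pools. Null 1 was the highest of all pools, and the other 3 null pools sat at or near the lower end of the WT range. The fold was 0.979 (95% interval 0.844 to 1.14, limma adjusted p = 0.942). An antisense gene, Gm28523, overlaps 741 bases of its exons.

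Prkaca (chromosome 8, 83972993 to 83996443, plus strand) encodes a catalytic subunit of protein kinase A. It held 3235, 2330 and 3187 normalized counts in WT and 3119, 2465, 2973 and 3111 in null pools. WT 2 and null 2 were low in their groups, and the group means were 2917.5 and 2916.8. The fold was 1.01 (95% interval 0.808 to 1.25, limma adjusted p = 0.9895). Its paralog Prkacb held 1148 ± 200.5 (SD, n = 3) normalized counts in WT and 1288 ± 250 (SD, n = 4) in null pools.

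**Figure D2:**
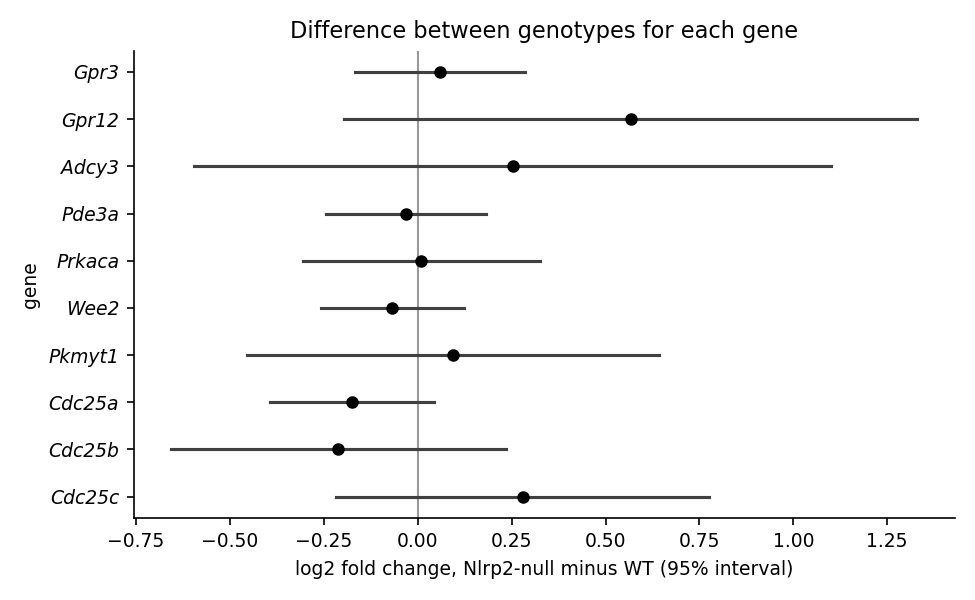
Log2 fold change, Nlrp2-null minus WT, for each gene (point) with its 95% interval from limma (line). All 10 intervals hold 0, and those of Gpr12 and Adcy3 are the widest.

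Among the inhibitory kinases, Wee2 (chromosome 6, 40439088 to 40466813, plus strand) was by far the most abundant. It held 85483, 103065 and 108668 normalized counts in WT and 99420, 99907, 92515 and 85193 in null pools. WT 1 and null 4 were the lowest pools and did not differ beyond the spread of either group. The fold was 0.954 (95% interval 0.836 to 1.09, limma adjusted p = 0.844). The log2 difference was 0.0865 in the lower and -0.29 in the higher range of library numbers, where WT 3, the highest pool, is the only WT pool. No 50-base window of its coding transcript stands in another annotated gene, and none of its exons overlaps one.

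Pkmyt1 (chromosome 17, 23726336 to 23736735, plus strand), the membrane-bound kinase that can modify both CDK1 residues, held 887, 834.5 and 620 normalized counts in WT and 1175, 883, 531 and 834 in null pools. Null 1 was the highest and null 3 the lowest of all pools. The fold was 1.07 (95% interval 0.729 to 1.56, limma adjusted p = 0.930). It shares 319 exon bases with Paqr4 on the opposite strand, and 11.05% of the 50-base windows of its coding transcript stand in Paqr4. Whether the counts kept strand apart is not stated, so the level of Pkmyt1 is uncertain too. Paqr4 held 966.5 ± 40.6 normalized counts in WT and 772 ± 190 in null pools. Null 3 had the lowest value of both genes. Without null 1 or without WT 3 the sign of the Pkmyt1 difference turned (log2 fold change -0.08 and -0.06).

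Wee1, the somatic relative of Wee2, held 1470 ± 350 (SD, n = 3) normalized counts in WT and 1161 ± 244 (SD, n = 4) in null pools. Per kb of exon, Wee2 made up 97.7%, 97.7% and 98.5% of the sum of Wee2, Wee1 and Pkmyt1 in WT pools and 97.9%, 98.3%, 98.6% and 97.6% in null pools. Wee1 supplied 0.889% to 1.63% and Pkmyt1 0.484% to 0.997%. The groups overlapped in all 3 shares.

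Cdc25a (chromosome 9, 109875579 to 109893895, plus strand) was the most abundant of the CDC25 phosphatase genes. It held 7074, 6643 and 6316 normalized counts in WT and 6395, 5892, 5863 and 5515.5 in null pools. Null 1 lay above WT 3, so the groups overlapped, although all 4 null pools lay below the WT mean. The means were 6678 ± 380 (SD, n = 3) and 5916.5 ± 362 (SD, n = 4), a log2 fold change of -0.175 (SE 0.103, limma adjusted p = 0.602) and a fold of 0.886 (95% interval 0.761 to 1.03). It had the smallest p of the 10 genes. The log2 difference was -0.16 in the lower and -0.15 in the higher range of library numbers, and over 21 alternative fits it stayed between -0.23 and -0.12.

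Cdc25b (chromosome 2, 131186949 to 131198497, plus strand), the form that mouse oocytes need to resume meiosis, held 893, 821 and 976 normalized counts in WT and 622, 949, 803.5 and 750 in null pools. Null 1 was the lowest pool, and null 2 reached the WT range. The fold was 0.864 (95% interval 0.634 to 1.18, limma adjusted p = 0.780). Without null 1 the log2 fold change went from -0.21 to -0.11. Spef1, which overlaps 92 of its exon bases, was at most 109 normalized counts in any pool.

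Cdc25c (chromosome 18, 34732993 to 34751533, minus strand), which oocytes can do without, held 494, 649 and 791 normalized counts in WT and 875, 877, 664 and 685 in null pools. WT 1 was lowest, null 1 and null 2 were highest, and the other 4 pools were mixed. The fold was 1.21 (95% interval 0.860 to 1.71, limma adjusted p = 0.724). The log2 difference was 0.63 in the lower range of library numbers and -0.23 in the higher one, and without WT 1 the log2 fold change went from 0.28 to 0.10. It was 0.44 without WT 3 and 0.51 with the cumulus markers in the fit (limma adjusted p = 0.5545). Its exons overlap those of Gm3550, on the opposite strand, by 623 bases.

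Cdc25a made up most of the CDC25 sum in every pool. Per kb of exon, Cdc25a supplied 72.2%, 70.2% and 65.1% of the Cdc25 sum in WT pools and 69.8%, 62.9%, 67.6% and 66.9% in null pools. Cdc25b supplied 14.6% to 21.8% and Cdc25c 8.22% to 15.6% over the 7 pools. The order of these 2 genes rests on the length used: per kb of coding transcript Cdc25b supplied 11.8% in WT and 11.1% in null pools, and Cdc25c 13.5% and 17.4%. The Cdc25c share was 10.9% ± 2.55 (SD, n = 3) in WT and 14.2% ± 1.46 (SD, n = 4) in null pools, with WT 1 lowest and overlap between groups.

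**Figure D3:**
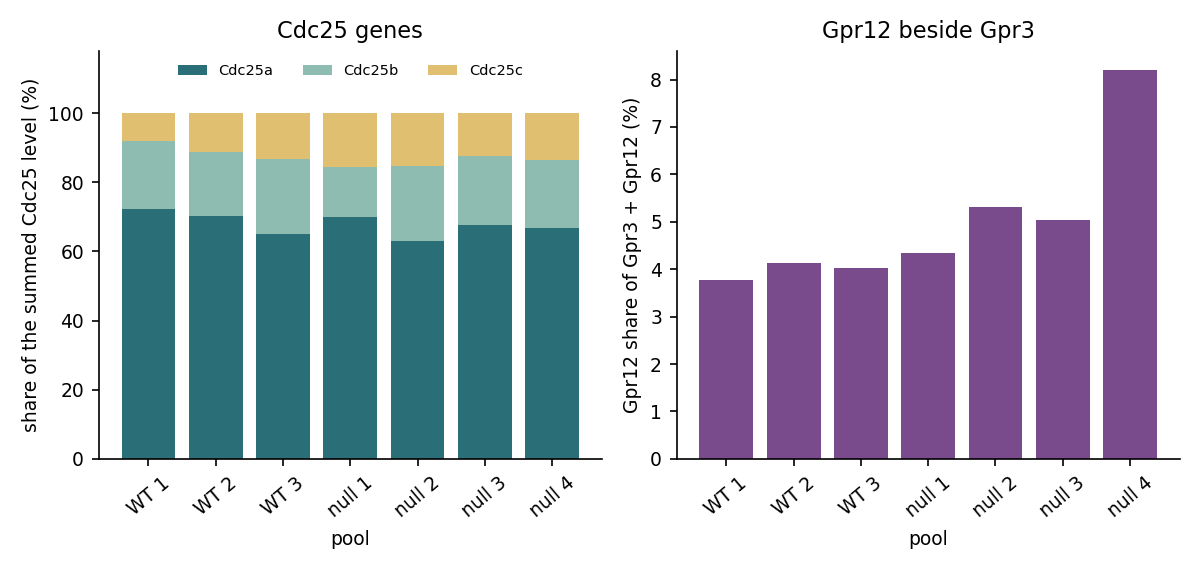
Left, share (%) of each Cdc25 gene in the summed Cdc25 level per kb of exon in each pool; right, share (%) of Gpr12 in the sum of Gpr3 and Gpr12, on its own axis. Cdc25a makes up 62.9% to 72.2% of its family in every pool, and the Gpr12 share is highest in null 4 at 8.20%.

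For the 3 genes with the smallest p values, the genes with the most similar pattern over the 7 pools were sought by the root mean square difference of centred log2 values among 11588 genes. For Cdc25a these were Shoc2 (0.0331) and Krr1 (0.0346), against a spread of Cdc25a itself of 0.113. Shoc2 held 67312, 66122 and 59976 normalized counts in WT and 60120, 57048, 56829 and 50814 in null pools, with null 4 lowest as for Cdc25a. For Gpr12 they were Pp2d1 (0.128) and Acin1 (0.132), both highest in null 4, against a spread of 0.4005. For Cdc25c they were Rbm12b1 (0.0759) and Gucy2c (0.0940), both lowest in WT 1, against a spread of 0.269. All these genes were picked for likeness over the same 7 pools, so a shared highest or lowest pool follows from the choice.

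In the wider pathways limma and edgeR called 0 genes, where limma called 0.0664% of all genes. Of 35 tested genes of the cyclic AMP and protein kinase A pathway 0 passed, 20 were positive and 15 negative, and the median log2 fold change was 0.02. In each direction 1 had an unadjusted p under 0.05, against 5.28% higher and 4.93% lower of all tested genes. Groups did not overlap for 4 of the 35, beside 9.91% of all tested genes. The smallest p values there belonged to the phosphodiesterase genes Pde7b (1.30, SE 0.529; 93.7 ± 44.8 in WT and 250 ± 149 in null pools) and Pde4a (-0.74, SE 0.344). Without WT 2, the highest pool, the Pde4a value was -0.44, and with the cumulus markers in the fit it was -0.40. Next came the arrestin gene Arrb2 (-0.46, SE 0.220) and the cyclase gene Adcy5 (0.31, SE 0.147). Adcy5 held 1681, 1868.5 and 1679 normalized counts in WT and 2474, 2165, 1875 and 2131.5 in null pools, without overlap, and had a limma adjusted p of 0.503. Per kb of exon, averaged over the 7 pools, the cyclase genes Adcy9 (1064), Adcy5 (276), Adcy8 (97.2) and Adcy6 (47.9) stood above Adcy3 (40.1). Adcy1 (36.2) and Adcy7 (3.15) stood below Adcy3. Over the pools Adcy3 ran from 21.9 to 59.8, a range that holds the means of Adcy6 and Adcy1. Pde3b (1059) stood below Pde3a. The annotated exons of Pde3b sum to 9114 bases against 6573 in its coding transcript, so its distance from Pde3a depends on the length used. Not divided by length, Adcy1 (393.5 in WT and 499 in null pools) stood above Adcy3 (219 and 274). Gnas, the stimulatory G protein that couples the receptors to cyclase, held 24469 ± 912 in WT and 24848 ± 2680 in null pools.

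A list of 13 genes covered the supply of cyclic GMP, its breakdown by phosphodiesterases and its transfer from the follicle. Of these 0 passed and 7 were positive, with genes of opposite roles counted together. The median log2 fold change of 0.19 was that of Nppc (SE 1.39), which had only 2 to 36 reads per pool. An unadjusted p under 0.05 was found for 3 higher and 1 lower, against 5.28% and 4.93% of all tested genes. Groups did not overlap for 1 of the 13 (Pde5a), beside 9.91% of all tested genes. The smallest p value was that of Gja1, a gap junction gene of granulosa cells (log2 fold change 0.78, SE 0.270, limma adjusted p = 0.351). Next came the phosphodiesterase gene Pde5a (0.84, SE 0.337), Gucy1a3 (1.00, SE 0.453) and the phosphodiesterase gene Pde9a (-0.98, SE 0.448). Gja1 held 1444, 691 and 1149 normalized counts in WT and 1303, 1370, 2651 and 2181 in null pools. Its highest pools, null 3 and null 4, also had the highest means of the cumulus markers. With the mean of the cumulus markers in the fit the Gja1 log2 fold change was 0.36 (limma adjusted p = 0.672), and without WT 2, its lowest pool, it was 0.48. Gja4, which encodes the gap junction protein of the oocyte itself, held 11477 ± 1786.5 in WT and 10820 ± 1595 in null pools.

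Of 53 genes that activate or brake CDK1 0 passed, with 16 positive, 37 negative and a median of -0.06. Over all tested genes 7648 were positive and 7423 negative, with a median of 0.01. In this list 1 gene had an unadjusted p under 0.05 with higher and 8 with lower values in null pools, beside 5.28% and 4.93% of all tested genes. Groups did not overlap for 9 of the 53, beside 9.91% of all tested genes. DESeq2, which called 1.33% of all genes, called 2 of the 53, Ccnb3 and Btrc, both lower. Ccnb3, a B-type cyclin gene needed for oocytes to enter anaphase of the first division, held 10280, 9432 and 10888.5 normalized counts in WT and 7918, 7557, 7145 and 7484 in null pools, without overlap. The fitted log2 difference was -0.44 (SE 0.0963, limma adjusted p = 0.114, DESeq2 adjusted p = 0.00157). Btrc, an F-box protein gene whose product can mark cell cycle proteins for degradation, had -0.40 (SE 0.109, limma adjusted p = 0.219, DESeq2 adjusted p = 0.0379). Ywhag (-0.29, SE 0.0855) and Ywhaq (-0.28, SE 0.0883) encode adaptor proteins of a family that can hold phosphorylated CDC25 enzymes in the cytoplasm, and the groups overlapped in neither gene. The kinase target Cdk1 itself held 1713.5 ± 137 in WT and 1616 ± 201 in null pools, and its cyclin gene Ccnb1 held 70334 ± 8463 and 69403 ± 5896.

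**Figure D4:**
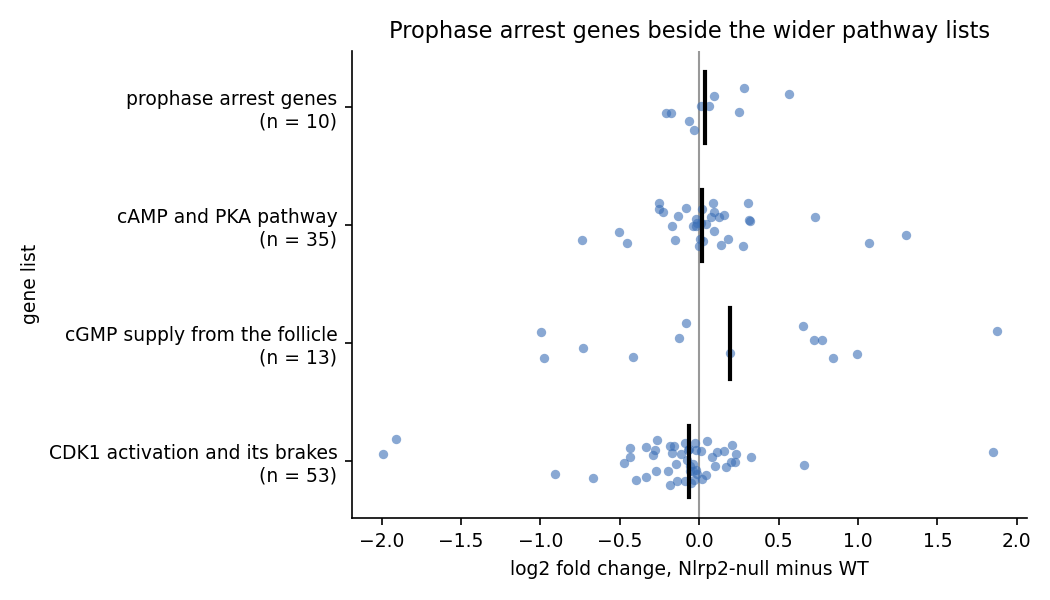
Log2 fold change, Nlrp2-null minus WT, of every tested gene (points, spread vertically at random) of the 10 prophase arrest genes and of the 3 wider lists, with a black bar at each list's median. The medians run from -0.06 to 0.19, and 0 genes of any list passed the limma test.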

How the data were processed

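Per the file headers and names, values of the gene table are a signal, namely counts that the authors divided by 1 DESeq2 size factor for each pool. Of its values 100% were whole multiples of a pool's step within 0.01, so whole reads were recovered. Per the submitters' processing notes the tools included TopHat2 2.0.9, STAR 2.5.0a, featureCounts 1.5.0-p1 and DESeq2 1.22.2, with GRCm38. The sources used here do not say which of them made this table, or with which annotation. A second table, of assembled transcripts without gene names, was not used here.

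limma 3.58.1 (R 4.3.3) with a variance trend was fitted to log2(normalized count + 1), null minus WT, over the 15071 genes with a mean of at least 10 (median SE 0.277). Fold changes are on that scale, which understates low genes. edgeR 4.0.16 and DESeq2 1.42.0 were alternatives on recovered reads; the 2080 genes for which DESeq2 gave NA kept it. The tests were tested on simulated data. No pools of a group agreed within sampling noise (the chi-square statistic was at least 38.2 times its degrees of freedom). Lengths and positions are from GENCODE M21. Amplification makes reads no independent molecules, so read numbers bear on counting error only.

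The members and lists were chosen with earlier results of these data known. Named genes are the 10 members, Nlrp2, the 4 genes of each list with the smallest p, and the 2 genes most alike to each of 3 members (mean of at least 50, no predicted genes, clones or pseudogenes). Some genes were named after their values were seen. They are relatives of members (the other Adcy genes, Pde3b, Prkacb, Gnas, Gja4, Cdk1, Ccnb1), Nppc, overlapping neighbours and all cell type markers given by name. Wee1 was set for the shares.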

Additional observations from a re-analysis of the deposited data

Results flagged for a closer look

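Pde3a stood at 21897 normalized counts in null 1, apart from the other 3 null pools, which held 17406 to 18080. The gap took 0.850 of the range of the 4 pools, above the 95% limit of Dixon's test for 4 values. Of 34 values checked in this way 1 passed, and chance flags about 1 in 20. The highest WT pool held 21019.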

How the results depend on the processing

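Over 21 alternative fits none of the 10 genes was called. The sign held in all 21 for Gpr3, Gpr12, Cdc25a, Cdc25b and Cdc25c, and turned in at least 1 for the other 5. Fold changes of those 5, and of Gpr3, were small beside their errors. For Gpr3 the log2 fold change was 0.00027 with equal medians and 0.0055 with the cumulus marker mean. The cause was not tested. Taking the cumulus marker mean into the fit gave log2 fold changes of -0.19 for Adcy3, 0.044 for Pde3a, -0.082 for Prkaca and 0.059 for Wee2. Without null 3 and null 4, an alternative chosen after seeing the data, they were -0.14, 0.043, -0.058 and 0.016 in the same order. The same fit gave 0.40 for Pkmyt1, 0.47 for Cdc25c, 0.60 for Pde7b, -0.36 for Pde4a, 0.35 for Gja1, 0.49 for Pde5a and -0.26 for Btrc. Prkaca was also negative with equal medians (-0.050), pool quality weights (-0.064), the library-number range as a covariate (-0.019) and DESeq2 (-0.000163). Leaving out each pool in turn gave ranges of -0.11 to 0.039 for Pde3a, -0.15 to 0.091 for Prkaca, -0.17 to 0.0031 for Wee2 and -0.077 to 0.30 for Pkmyt1. The groups share replicate numbers, but same-numbered pools did not deviate together (correlations of -0.163, 0.0192 and -0.0121), so the numbers were not taken as pairs. With the replicate block 1 gene of the whole table was called, and the log2 fold changes of Pde3a and Prkaca were 0.0027 and -0.024. Only null pools have a replicate 4, so null 4 does not enter the difference in that fit. The block gave 0.36 for Gpr12 and 0.074 for Adcy3, the same as leaving out null 4.

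The count of calls over the whole table, 10 in the fit reported, was 6 with equal medians, 68 with pool quality weights, 19 with the cumulus marker mean and 200 in DESeq2. It was 0 in limma without a variance trend and 0 without null 3 and null 4, where 1252 and 1080 genes had an unadjusted p under 0.05. Leaving out 1 pool gave 2 (without null 3) to 16 (without null 1), and 4 without WT 2, 5 without WT 3 and 4 without null 4. Of the CDK1 list 1 gene (Ccnb3) was called with pool quality weights and 2 in DESeq2. Not divided by length, the Cdc25a share was 81.2% in WT and 79.2% in null pools, and per kb of coding transcript it was 74.7% and 71.5%. The Gpr3 share in WT was 96.3% without length. Counting error was largest for Gpr12 and Adcy3, at 7.27% and 8.91% of the value in the pool with the fewest reads.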
